A study of Mus musculus with 12 samples.

Results

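Hmga2 and 9 other oncofetal genes that are known or related targets of the let-7 microRNAs (Hmga1, Igf2bp1, Igf2bp2, Igf2bp3, Arid3a, Trim71, Nr6a1, Plagl2 and Cdc34) were followed in kidneys of mice at postnatal day 3 (P3). These 10 genes were picked by symbol from the 24062 symbols of the count tables, and all 10 were present. RNA from 12 whole kidneys was sequenced, 3 in each of 4 groups. Each of 2 models was compared with its own wild-type littermates, with 2 litters in each group: C57BL/6 mice that overexpress LIN28B, and let-7 knockout (KO) mice on a mixed CD1 and C57BL/6 background. In the first model, called LIN28B Wt1, Wt1-Cre switches on a doxycycline-dependent human LIN28B transgene, so the transgene is confined to cells that have expressed Wt1 and their descendants, while the whole organ was sequenced. The paper describes a short doxycycline pulse before birth, given in the drinking water. Wild-type littermates carried by the same mother would then have been exposed to doxycycline as well. Which alleles these littermates carried is not given in the sources used here. The let-7 KO lacks the cluster of let-7a-1, let-7d and let-7f-1, and other let-7 loci are left in place.

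let-7 is a family of small RNAs that bind messenger RNAs, mostly in the 3′ untranslated region (3′ UTR), through a short seed at their own 5′ end and lower the level or the translation of those messages. LIN28B binds let-7 precursors and blocks their maturation, so let-7 is low in embryonic tissue and rises as tissues mature. Oncofetal targets are active in the embryo, fall to low levels in most adult tissues and return in some tumors. Nephron formation in the mouse ends in the first days after birth. All kidneys here were of a single age, so the course of these genes over time was not measured.

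The mature sequences show what the knockout removes and what it leaves. The lines give the products of the deleted cluster (let-7a, let-7d and let-7f, from chromosome 13) and, for comparison, let-7b and let-7g from loci that remain, as RefSeq lists them for GRCm38.p6, with the seed (bases 2 to 8) in capitals.
let-7a: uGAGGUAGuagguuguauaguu
let-7d: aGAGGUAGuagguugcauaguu
let-7f: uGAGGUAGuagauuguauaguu
let-7b: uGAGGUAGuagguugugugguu
let-7g: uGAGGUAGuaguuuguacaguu
The deleted and the remaining members share the seed, and mature let-7a and let-7f are also made from other loci.

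Each of the 10 genes carried at least 1 match to this seed in its longest annotated 3′ UTR (GENCODE M21, GRCm38, the same assembly as mm10). The letters searched on the transcript strand were CTACCTC, which pairs with bases 2 to 8, and TACCTCA, which pairs with bases 2 to 7 and ends in an A. The overlap of the pair, CTACCTCA, was counted once. In all, 37 matches were found, with 8 in Nr6a1, 7 in Hmga2, 6 in Trim71, 5 in Igf2bp1 and 4 in Arid3a. Igf2bp2 and Cdc34 held 2 each, and Hmga1, Igf2bp3 and Plagl2 held 1 each. Among the 14200 expressed genes with an annotated 3′ UTR, 16.6% held any of these matches and 0.204% held at least 4, against 5 of the 10 genes followed here. Since the genes were chosen as let-7 targets, the matches describe them and are no separate finding. Their 3′ UTRs were also long, with a median of 3048 bases against 1139 bases over all 14200. Of the 1878 genes with a 3′ UTR from 0.8 to 1.25 times as long as that of Hmga2, 28.7% held a match and 2 held at least as many as Hmga2.

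Matches of the 4 genes that passed the test in LIN28B Wt1 kidneys are printed with the preceding bases, 5′ to 3′ on the coding strand, and with the seed match in capitals. Hmga2 is shown at the match nearest its stop codon (chr10:120364224-120364246) and at a later one (chr10:120361691-120361713), both on the minus strand. For Igf2bp1 the first and last of its 8-base matches are given (chr11:95961778-95961800 and chr11:95958763-95958785, minus strand). Igf2bp2 (chr16:22059473-22059495, minus strand) and Cdc34 (chr10:79688112-79688134, plus strand) each have a single 8-base match.
Hmga2 near: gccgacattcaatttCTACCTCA
Hmga2 far: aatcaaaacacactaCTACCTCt
Igf2bp1 first: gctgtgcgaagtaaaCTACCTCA
Igf2bp1 last: gtataaatggatgaaCTACCTCA
Igf2bp2: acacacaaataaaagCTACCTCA
Cdc34: gcctcaggcgacagaCTACCTCA
The near match of Hmga2 lies 58 bases into a 3′ UTR of 3014 bases, whereas the single 8-base match of Cdc34 lies 232 bases into one of 499 bases.

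**Figure D1:**
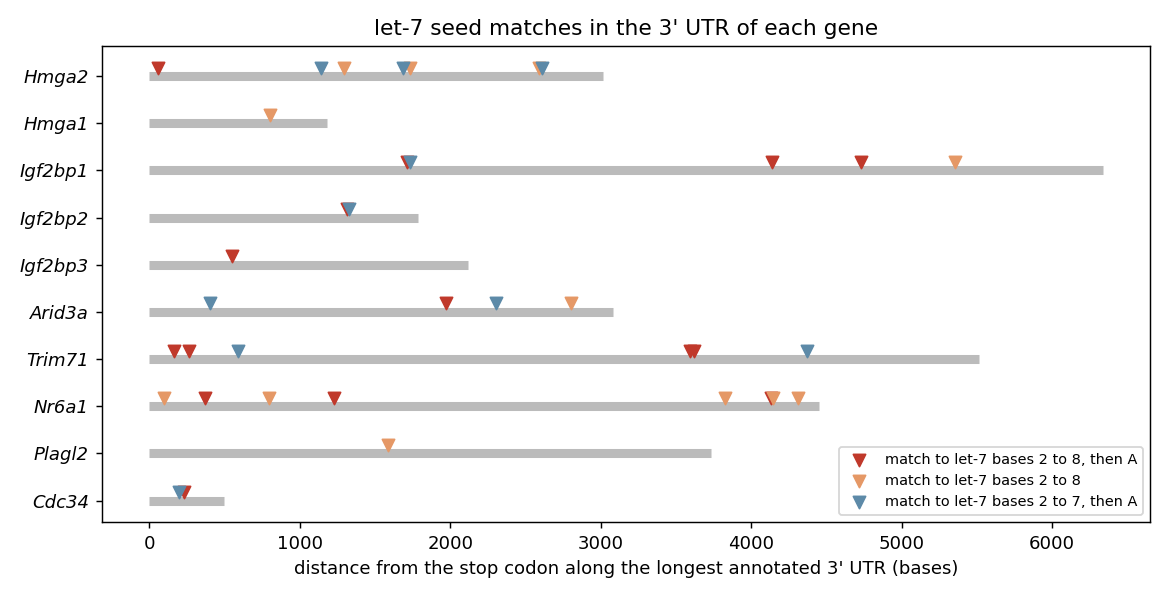
Positions of let-7 seed matches (triangles, colored by type) along the longest annotated 3′ UTR of each gene (grey bar), in bases from the stop codon. Nr6a1 holds 8 matches and Hmga2 holds 7 spread over 3014 bases, while Hmga1, Igf2bp3 and Plagl2 hold 1 each.

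The kidneys were sequenced to between 39926235 and 61872736 counts, so that 3 counts correspond to 0.0485 to 0.0751 CPM (counts scaled to the same library total). Levels below are CPM scaled by the TMM factors of edgeR over all 12 kidneys (normalized CPM), listed for replicates 1, 2 and 3, of which 1 and 2 come from litter 1 and the third from litter 2. Replicate 3 of the LIN28B Wt1 group stood apart from the other 2 (a chi-square per gene of 220.8 and 230.9, against 59.2 between those 2). Pairs of let-7 kidneys differed about as widely, from 93.8 to 201.4 in let-7 WT and from 90.4 to 231.9 in let-7 KO. Replicate 3 of let-7 KO was the shallowest library. All 3 let-7 KO kidneys had 0 counts from Mirlet7a-1, Mirlet7d and Mirlet7f-1. The let-7 WT kidneys were also low at Mirlet7a-1 (0, 8 and 0 counts) and Mirlet7f-1 (0, 0 and 2). Counts of 0 at those loci therefore say little about the deletion. The let-7 WT kidneys had 0, 19 and 35 counts from Mirlet7d, so the library labelled let-7 WT replicate 1 could not be told from a KO by this locus. These libraries measure long RNA, so mature let-7 was not measured. The counts are of mouse genes, and whether reads of the human transgene were counted as mouse Lin28b was not tested. Mouse Lin28b had 0, 18 and 33 counts in controls and 232, 224 and 71 in LIN28B Wt1 kidneys, and Lin28a had at most 5 in any kidney. By qRT-PCR the paper reports unchanged endogenous Lin28a and Lin28b transcripts in LIN28B Wt1 kidneys. By Y-linked genes the sexes were balanced, with 1 male of 3 in each LIN28B group and 2 of 3 in each let-7 group.

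The first comparison asked whether LIN28B overexpression raised these let-7 targets. It did so for Hmga2, Igf2bp1, Igf2bp2 and Cdc34, and none of the 10 fell (0.766% of all genes tested did). Hmga2 changed the most, from about 14 to about 190 normalized CPM. In count, 4 of the 10 genes rose at an adjusted p below 0.05 (edgeR quasi-likelihood test, Benjamini-Hochberg over 15793 genes), where 0.462% of all genes tested rose. At the threshold of the study, an unadjusted p below 0.01, 6 of the 10 rose, against 3.25% of all genes. In 8 of the 10 every LIN28B Wt1 kidney was above every control kidney, which was so for 10.3% of all genes. On the log2 scale the 10 genes changed by a median of 1.04, against −0.0162 over the genes tested.

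Hmga2 encodes a high-mobility-group protein that binds AT-rich DNA and shapes chromatin in embryonic cells (chr10:120361275-120476469, minus strand). Its level was 12.4, 14.5 and 16.4 normalized CPM in the control kidneys and 207.0, 205.9 and 155.9 in the LIN28B Wt1 kidneys. The lowest overexpressing kidney was far above the highest control, and replicate 3 was the lowest of its group. The rise was 13.2-fold (log2 fold change 3.72 ± 0.185 SE, 95% interval 3.31 to 4.14, n = 3 against 3, edgeR adjusted p = 6.16e-05). By p-value Hmga2 ranked 1 of the 15793 genes, and by size of increase it ranked 19. Its share of the summed normalized CPM of the 10 genes had a median of 6.67% in controls and 29.8% in LIN28B Wt1 kidneys. Hmga1, the second gene of this family, stayed near 1 normalized CPM throughout and is taken up with the low genes.

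The 3 Igf2bp genes encode RNA-binding proteins that stabilize and localize messages such as those of Igf2 and Myc. Igf2bp1 (chr11:95957163-96005940, minus strand) was at 20.99, 21.7 and 26.4 normalized CPM in controls and at 85.7, 82.0 and 88.8 in LIN28B Wt1 kidneys. The overexpressing kidneys lay close together and apart from controls, and the rise was 3.72-fold (log2 1.90 ± 0.164 SE, edgeR adjusted p = 0.000977, n = 3 against 3). Igf2bp2 (chr16:22059009-22163299, minus strand) was at 59.3, 58.1 and 54.2 in controls and at 153.8, 114.7 and 229.9 in LIN28B Wt1 kidneys. The groups did not overlap, although the overexpressing kidneys spread over about a 2-fold range with replicate 3 the highest. Its rise was 2.92-fold (log2 1.54 ± 0.237 SE, edgeR adjusted p = 0.0185). Igf2bp3 was at 28.8, 23.4 and 27.5 in controls and at 47.3, 27.6 and 53.5 in LIN28B Wt1 kidneys. Here replicate 2 of the LIN28B Wt1 group lay within the range of the controls, and the difference of 0.69 ± 0.253 SE on the log2 scale did not pass the test (edgeR adjusted p = 0.188). Of the Igf2bp3 transcript, 34.5% of all stretches of 50 bases also occur in transcripts annotated to Malsu1, so part of its count depends on how shared reads were assigned.

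Cdc34 encodes a ubiquitin-conjugating enzyme that works with SCF ligases on cell cycle inhibitors (chr10:79682195-79688398, plus strand). It was at 58.4, 56.4 and 53.7 normalized CPM in controls and at 131.6, 144.4 and 109.2 in LIN28B Wt1 kidneys. The groups were well apart and the rise was 2.29-fold (log2 1.19 ± 0.15 SE, edgeR adjusted p = 0.00804). A near copy, Cdc34b, shares 18.7% of its 50-base stretches. Arid3a, an AT-rich DNA-binding transcription factor, was at 17.6, 22.1 and 22.4 in controls and at 41.8, 41.5 and 32.3 in LIN28B Wt1 kidneys. Plagl2, a zinc finger transcription factor, was at 15.2, 16.7 and 12.3 in controls and at 20.3, 24.7 and 33.2 in LIN28B Wt1 kidneys. Neither gene overlapped between groups, and both passed the unadjusted threshold but not the adjusted one, with log2 differences of 0.90 ± 0.195 SE for Arid3a (edgeR adjusted p = 0.0604) and 0.83 ± 0.248 SE for Plagl2 (edgeR adjusted p = 0.127).

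The number called depended on single libraries, and the share of all genes called in the fits without 1 kidney is not given here. It fell to 2, Hmga2 and Igf2bp1, without control replicate 1 or without control replicate 2, and rose to 5 with Arid3a when LIN28B Wt1 replicate 3 was left out. Igf2bp2 stayed past the threshold in 2 of these 6 fits and Cdc34 in 4, while their log2 fold changes ranged from 1.22 to 1.77 and from 1.12 to 1.29. Within litter 1 the mean level of 9 of the 10 genes was higher in LIN28B Wt1 kidneys, and within litter 2 (1 kidney a group) that of all 10. In litter 2 the log2 difference was only 0.0159 for Nr6a1 and 0.261 for Trim71, both low genes. The share of all genes higher within each litter is not given here.

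**Figure D2:**
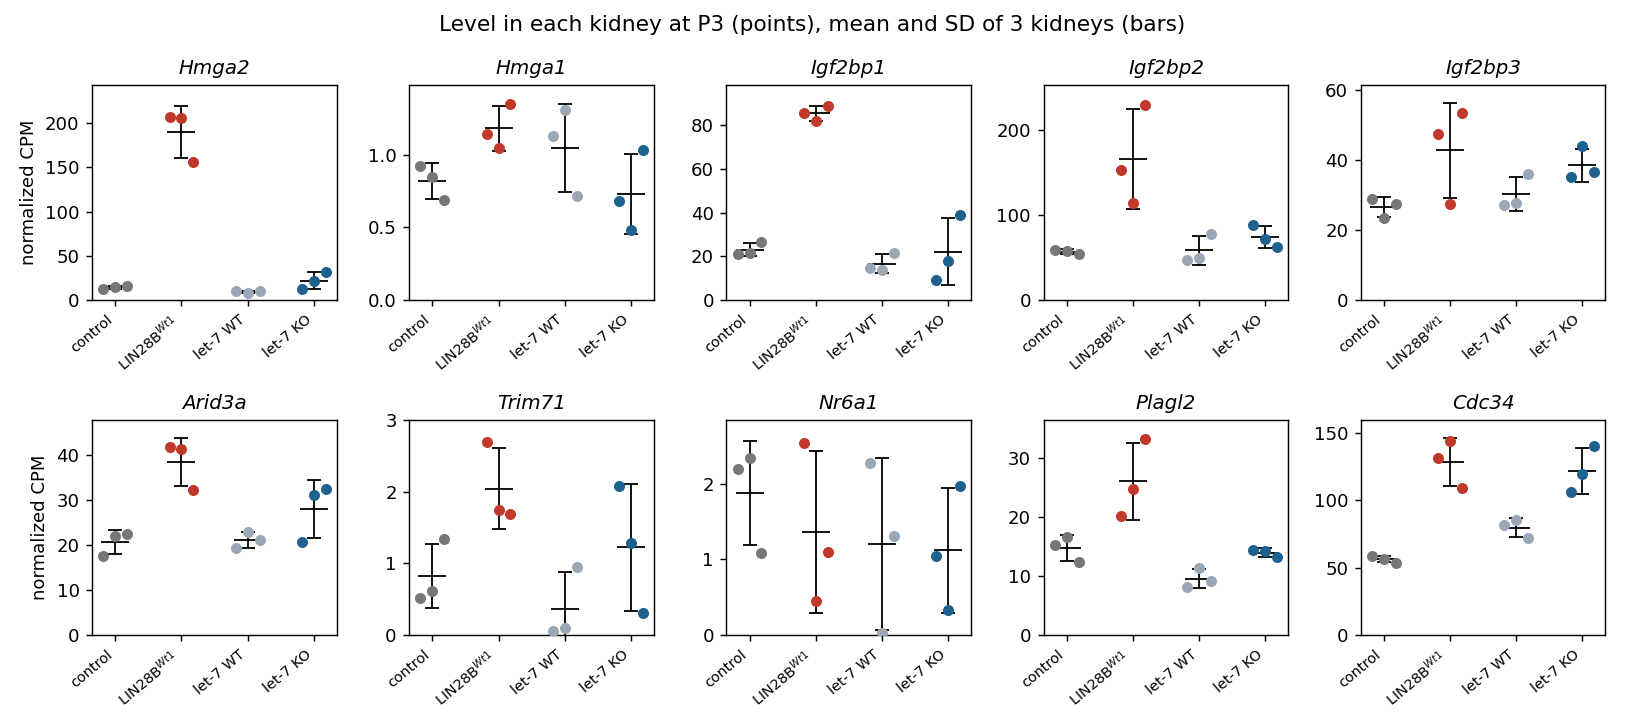
Normalized CPM (linear axes from 0) of the 10 genes in each of the 12 kidneys at P3, with points for kidneys and bars for the mean ± SD of 3. All genes but Igf2bp3 and Nr6a1 sit higher in every LIN28B Wt1 kidney than in any control, as do 10.3% of all genes tested. Hmga2, Plagl2 and Cdc34 sit higher in every let-7 KO kidney than in any let-7 WT kidney, within a narrower range, as do 7.86% of all genes tested.

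Most markers of the cells that form nephrons were higher in the same kidneys. The summed level of 12 cap mesenchyme markers was 363.2 to 381.0 normalized CPM in controls and 641.2 to 828.7 in LIN28B Wt1 kidneys. Of the 11 tested, 6 rose (edgeR adjusted p below 0.05), against 0.462% of all genes. Of the others, Tmem100 was lower in every LIN28B Wt1 kidney (log2 difference −0.67 ± 0.203 SE, edgeR adjusted p = 0.129) and Itga8 had a log2 difference of −0.09 ± 0.298 SE. The summed level of 12 markers of mature nephron segments was 3840 to 4175 in controls and 1952 to 2842 in LIN28B Wt1 kidneys. At the same threshold 3 of these 12 were lowered, against 0.766% of all genes. The corresponding sums over 12 cell cycle genes were 1503 to 1540 and 1867 to 2138, with no gene called by edgeR and 5 raised at an unadjusted p below 0.05, against 8.52% of all genes. In whole kidneys, fewer cells of a type and less RNA per cell cannot be told apart, and the part of cell composition in the rise of Hmga2 was not tested. Of tissues that could be carried along, 10 adrenal markers summed to at most 8.47 normalized CPM and 6 germ cell markers to at most 7.61 in any kidney. The adrenal sum was 2.98 to 3.80 in controls and 6.83 to 8.47 in LIN28B Wt1 kidneys. Of the 3 adrenal genes tested 1, Pnmt, rose (edgeR adjusted p = 0.0176), against 0.462% of all genes. Pnmt had 0 counts in every control and 209, 168 and 149 in LIN28B Wt1 kidneys. The erythroid markers in the files summed to 42.79 to 110.4 normalized CPM. The globins among them, Hba-a1, Hba-a2, Hbb-bs and Hbb-bt, were listed at 0 in all 12 kidneys although Alas2 had at least 1968 counts in each.

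The second comparison asked whether loss of the let-7a-1, let-7d and let-7f-1 cluster had the same consequence. No gene of the 10 passed the adjusted threshold in let-7 KO kidneys, where only 3 of 15500 genes (0.0194%) did, and all 3 of those fell. DESeq2 called none of the 10 either, and 0.971% of all genes, and at an unadjusted p below 0.05 in edgeR 2 of the 10 were higher, against 5.28% of all genes. At an unadjusted p below 0.01, 2 of the 10 were higher, Hmga2 and Cdc34, against 1.10% of all genes. Every let-7 KO kidney was above every let-7 WT kidney for 3 of the 10, Hmga2, Plagl2 and Cdc34, against 7.86% of all genes. The log2 fold change was above 0 for 8 of the 10, against 48.0% of all genes, with a median of 0.387 against −0.0228. It was also above 0 for 9 of the 11 cap mesenchyme markers tested (median 0.629) and for 2 of the 12 mature nephron segment markers (median −0.422). None of these markers was called by edgeR, and their part in the differences of the 10 genes was not tested.

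Hmga2 was at 9.68, 7.72 and 10.5 normalized CPM in let-7 WT kidneys and at 12.3, 21.8 and 31.6 in let-7 KO kidneys. The groups did not overlap, but the KO kidneys differed among themselves by more than 2-fold, and the lowest of them was little above the highest WT kidney. The ratio was 2.32 (log2 1.22 ± 0.364 SE, 95% interval 0.409 to 2.02, edgeR adjusted p = 0.362). Cdc34 was at 81.3, 85.5 and 72.2 in let-7 WT kidneys and at 105.9, 119.3 and 140.0 in let-7 KO kidneys. These groups were apart as well, by a ratio of 1.51 (log2 0.59 ± 0.178 SE, edgeR adjusted p = 0.362). Plagl2 was at 8.18, 11.3 and 9.22 in let-7 WT kidneys and at 14.5, 14.2 and 13.2 in let-7 KO kidneys. Its KO kidneys were close together and all above WT, with a log2 difference of 0.53 ± 0.305 SE (edgeR adjusted p = 0.56).

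The other measurable genes overlapped between let-7 WT and KO. Igf2bp1 was at 14.7, 13.7 and 21.6 normalized CPM in WT kidneys and at 9.13, 18.1 and 39.2 in KO kidneys. Replicate 1 of the KO group was the lowest of all 6 kidneys and replicate 3 the highest, and without KO replicate 3 the log2 difference turned from 0.38 ± 0.455 SE to −0.305. The ratios for Igf2bp2, Igf2bp3 and Arid3a were 1.26, 1.26 and 1.31, with 95% intervals of the log2 difference from −0.198 to 0.866, from −0.166 to 0.825 and from −0.167 to 0.951. A doubling, log2 of 1, lies outside these 3 intervals. KO replicate 3, in which Hmga2, Igf2bp1 and Cdc34 were highest, was also the library in which log expression depended least on transcript length, with a slope of 0.468 against 0.512 to 0.692 in the others. With that slope as a covariate the log2 difference of Hmga2 became 0.796.

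The low genes were Hmga1, Trim71 and Nr6a1. All 3 passed the filter on low counts, so no gene of the 10 was formally too low to test, but they reached at most 2.7 normalized CPM in any kidney and their changes could not be told from the spread between kidneys. Hmga1 had 26 to 82 counts a kidney. Its level was 0.925, 0.849 and 0.685 normalized CPM in controls and 1.14, 1.05 and 1.35 in LIN28B Wt1 kidneys, which did not overlap, yet the 95% interval of the log2 difference ran from −1.29 to 2.35. In addition, 86.0% of its 50-base stretches occur in transcripts of Hmga1b or AI413582, so that its count depends on how shared reads were treated.

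Trim71, a ubiquitin ligase and RNA-binding protein of early embryos, had 31, 27 and 70 counts in controls and 165, 93 and 103 in LIN28B Wt1 kidneys. Its groups did not overlap, and the log2 difference was 1.31 ± 0.767 SE (edgeR adjusted p = 0.417). In the let-7 model it had 3, 5 and 56 counts in WT kidneys and 126, 69 and 11 in KO kidneys. The kidneys of litter 1 were higher in the KO and that of litter 2 lower, and WT replicate 1 was at the floor of 3 counts. Nr6a1, an orphan nuclear receptor of germ and embryonic cells, had 131, 102 and 57 counts in controls and 156, 24 and 67 in LIN28B Wt1 kidneys. Nr6a1 had 134, 1 and 77 counts in let-7 WT kidneys and 63, 18 and 71 in let-7 KO kidneys. Counts this uneven within each group gave log2 differences of −0.45 ± 0.819 SE in LIN28B Wt1 and −0.12 ± 1.39 SE in let-7 KO. Thus the gene with the most seed matches, 8, was among the least measurable.

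**Figure D3:**
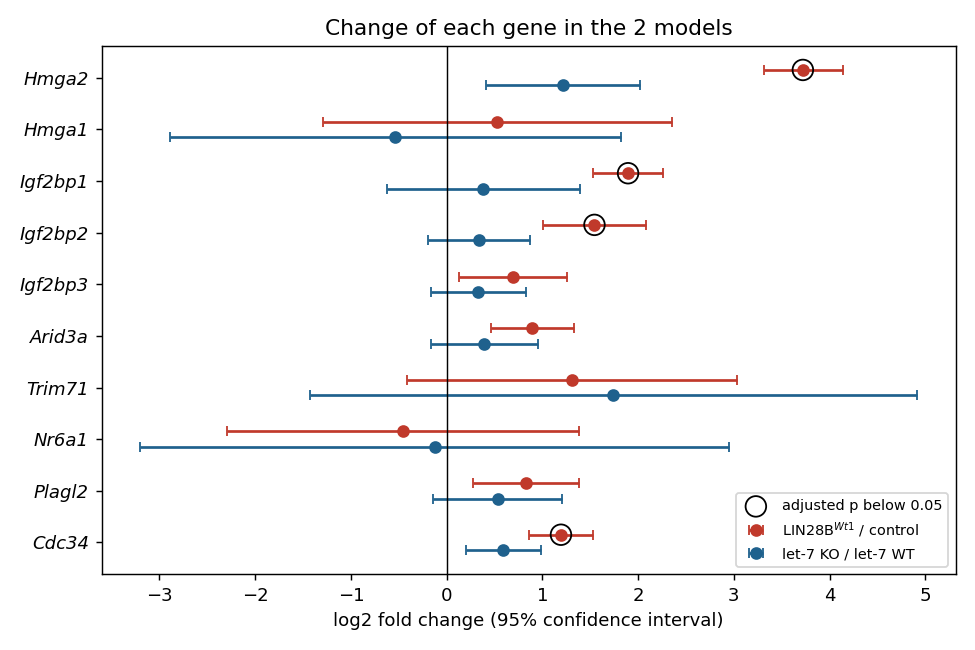
Log2 fold change with its 95% confidence interval for each gene in LIN28B Wt1 against control (red) and let-7 KO against let-7 WT (blue), circled where the edgeR adjusted p was below 0.05. Hmga2 lies at 3.72 and 1.22 in the 2 models, and the intervals of Hmga1, Trim71 and Nr6a1 span 0 in both.

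The size of the change was then compared between the models in a single fit of all 12 kidneys. For Hmga2 the LIN28B Wt1 effect exceeded the let-7 KO effect by 2.48 ± 0.389 SE on the log2 scale (95% interval 1.65 to 3.32), which did not pass adjustment over the 16598 genes (edgeR adjusted p = 0.0856). It ranked 3 by p-value in a comparison where 1 gene in all (0.00602%) passed. When each of the 12 kidneys was left out in turn, the edgeR adjusted p of Hmga2 ran from 0.011 to 0.33, and 2 of the 12 fits, without let-7 KO replicate 1 or 3, passed. Igf2bp2 differed by 1.19 ± 0.347 SE (edgeR adjusted p = 0.537), Igf2bp1 by 1.49 ± 0.531 SE (edgeR adjusted p = 0.676) and Cdc34 by 0.58 ± 0.219 SE (edgeR adjusted p = 0.692). In that test none of the 10 was called by edgeR and 1, Hmga2, by DESeq2, which called 0.534% of all genes, and 4 had a larger effect in LIN28B Wt1 at an unadjusted p below 0.05, against 2.59% of all genes. The models also differ in strain, in the cells affected and in how let-7 was lowered, and these cannot be told apart.

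The wild-type groups themselves were compared, since they set the baseline of each model. None of the 10 genes was called between let-7 WT (mixed strain) and control (C57BL/6) kidneys, where 1.19% of the 15850 genes tested were. DESeq2 called 1, Cdc34, and 3.96% of all genes. At an unadjusted p below 0.05 in edgeR 1 was higher and 2 were lower, against 7.0% and 5.70% of all genes. Of the 10, 1 was higher and 2 were lower in every let-7 WT kidney than in any control, which was so for 9.75% and 10.2% of all genes. Cdc34 was the higher one (72.2 to 85.5 against 53.7 to 58.4 normalized CPM, log2 difference 0.50 ± 0.139 SE, edgeR adjusted p = 0.151). Hmga2 and Plagl2 were the lower ones, with log2 differences of −0.64 ± 0.251 SE (edgeR adjusted p = 0.321) and −0.63 ± 0.252 SE (edgeR adjusted p = 0.325). The marker sums differed as well: cap mesenchyme was at 219.7 to 308.0 normalized CPM in let-7 WT and 363.2 to 381.0 in control kidneys, and mature nephron segments at 4841 to 6183 and 3840 to 4175. All 12 cell cycle genes had a log2 difference below 0, with none called by edgeR and 5 at an unadjusted p below 0.05. The part of these markers in the gene differences was not tested, and strain and experiment cannot be told apart here. The order of the Hmga2 level was thus let-7 WT, control, let-7 KO and LIN28B Wt1, in which control (12.4 to 16.4) and let-7 KO (12.3 to 31.6) overlapped and LIN28B Wt1 stood clear of all others. For Cdc34 the order was control, let-7 WT, let-7 KO and LIN28B Wt1, and the last 2 groups overlapped.

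Per kilobase of exon (normalized RPKM, over the union of annotated exons), Cdc34 was the most abundant of the 10 in controls at 35.7 ± 1.48 (SD, n = 3), followed by Igf2bp2 at 7.73 ± 0.36. Arid3a, Igf2bp3, Plagl2, Igf2bp1 and Hmga2 followed between 3.73 and 2.13 RPKM. Hmga1 was at 0.386, Nr6a1 at 0.173 and Trim71 at 0.0884 RPKM. Other genes share 86.0% of the 50-base stretches of Hmga1, 34.5% of those of Igf2bp3 and 18.7% of those of Cdc34. How shared reads were counted is not known, so the level and place of these 3 genes depend on it. In LIN28B Wt1 kidneys Hmga2 moved up to between 23.03 and 30.57 RPKM, second to Cdc34 at 81.7 ± 11.4 and beside Igf2bp2 at 22.5 ± 7.92, from which it did not differ beyond the spread of the 3 kidneys. In let-7 KO kidneys Hmga2 stood at 3.24 ± 1.43 RPKM.

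A further 34 known let-7 targets served as the wider pathway. In LIN28B Wt1 kidneys 6 of the 32 tested rose and none fell (edgeR adjusted p below 0.05), against 0.462% and 0.766% of all genes. Their median log2 fold change was 0.561, against −0.0162 over all genes tested. The 6 were Igf2, a fetal growth factor (2.94-fold), Arid3b, a relative of Arid3a (5.21-fold), Igdcc3, a cell surface protein of the immunoglobulin superfamily (2.98-fold), Dicer1, which cuts microRNA precursors (1.97-fold), Ccnd2, a D-type cyclin (1.73-fold), and Nras, a small GTPase (1.60-fold). With litter as a block 2 of the 32 were called. Without LIN28B Wt1 replicate 3, 10 were raised and 1 lowered, and without any other single kidney of this model 1 was raised. The share of all genes called in these alternative fits is not given here. In let-7 KO kidneys none of the 31 tested was called by edgeR (4 raised and 2 lowered at an unadjusted p below 0.05, against 5.28% and 5.56% of all genes). DESeq2 called 1, Igf2, and 0.971% of all genes. Of the 31, 18 lay above 0, against 48.0% of all genes, with a median of 0.0554 against −0.0228. Igf2 was at 89.2, 149.9 and 86.6 normalized CPM in let-7 WT kidneys and at 168.9, 274.6 and 334.4 in let-7 KO kidneys, which did not overlap (log2 1.23 ± 0.285 SE, edgeR adjusted p = 0.345).

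**Figure D4:**
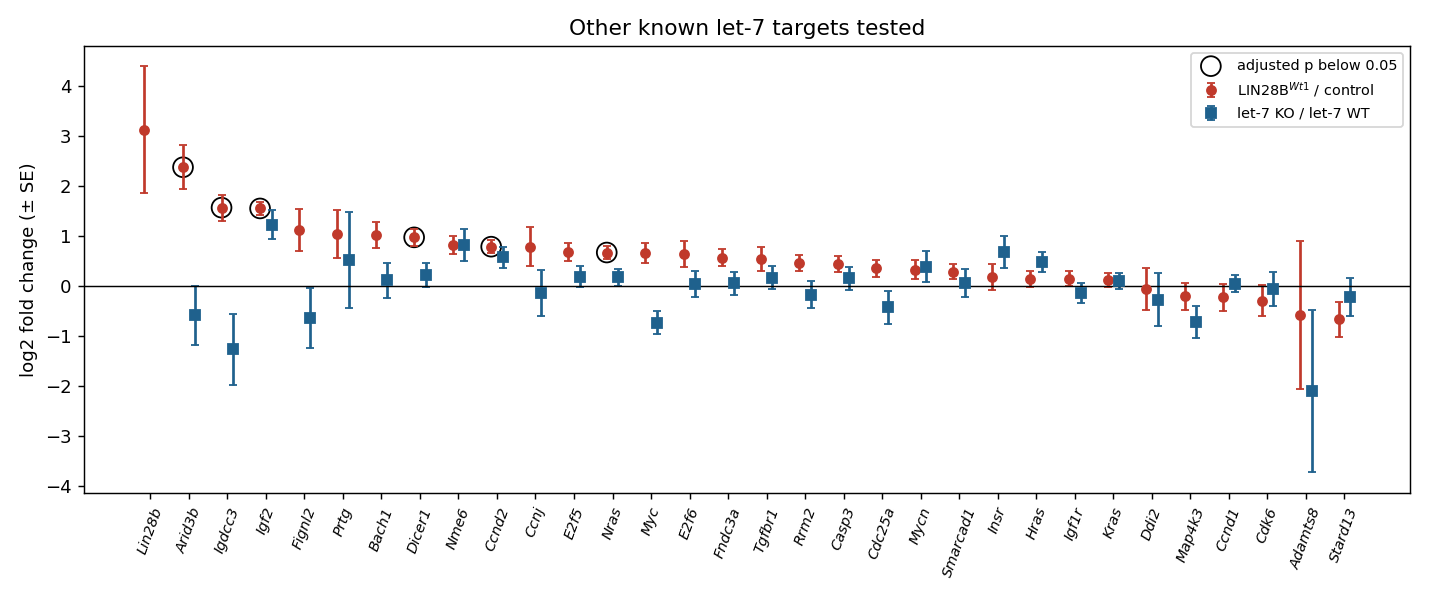
Log2 fold change (± SE) of the other let-7 targets tested, in LIN28B Wt1 against control (red circles) and let-7 KO against let-7 WT (blue squares), in the order of the first, with black rings where the edgeR adjusted p was below 0.05. Of the 32 red points 26 lie above 0, and of the 31 blue points 18 do.

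The genes whose pattern over the 12 kidneys was most like that of Hmga2 were sought among 14063 genes with a mean of at least 1 CPM, by the root mean square difference between centred log2(CPM + 0.5) profiles. The nearest were Six2 (0.554), Meox2 (0.615), Cited1 (0.644), Gdnf (0.765) and Hoxd12 (0.768). Six2 and Cited1 are transcriptional regulators of nephron progenitors, Gdnf is the growth factor that draws out ureteric branches, and Meox2 and Hoxd12 are homeobox genes. Of the other oncofetal genes, Igf2bp1 came closest at rank 7 (0.797), followed by Igf2bp2 at rank 66 and Plagl2 at rank 142, while Nr6a1 ranked 9051. Six2 was at 10.2 to 14.9 normalized CPM in controls and 108.2 to 165.9 in LIN28B Wt1 kidneys, a log2 difference of 3.35 against 3.72 for Hmga2. Since Six2 was picked for its likeness to Hmga2 over these same kidneys, a similar difference follows from the choice and is no separate finding. In the let-7 model its log2 difference was 0.94 ± 0.513 SE, with WT kidneys at 2.59 to 9.18 and KO kidneys at 8.22 to 19.1 normalized CPM.

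**Figure D5:**
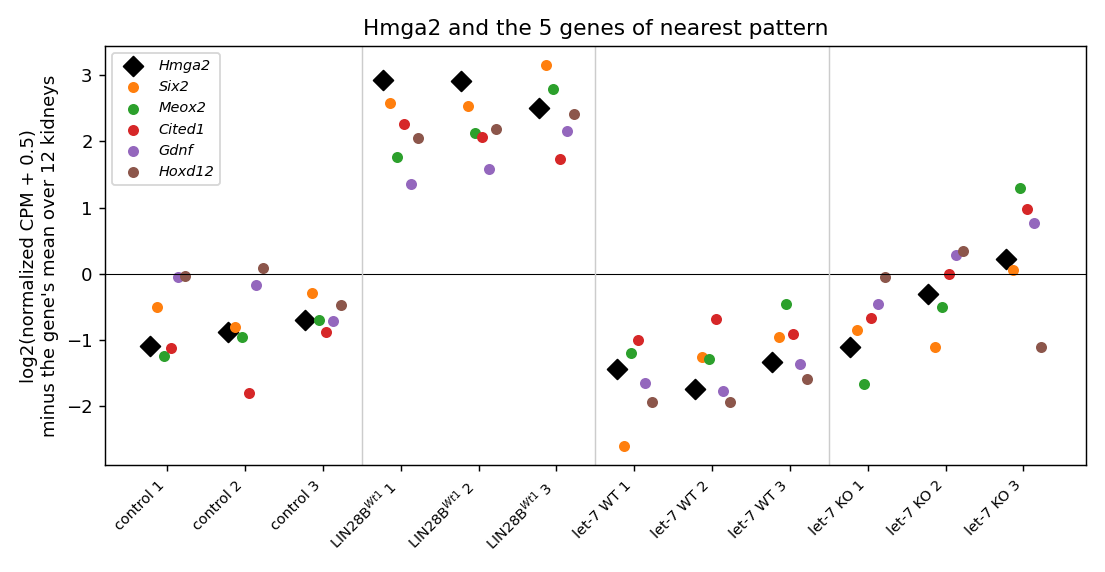
Centred log2(normalized CPM + 0.5) of Hmga2 (black diamonds) and of the 5 genes nearest in pattern (colored circles) in each of the 12 kidneys. All 6 genes are highest in the 3 LIN28B Wt1 kidneys, and Hmga2 in the let-7 KO group rises above its mean only in replicate 3.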

How the data were processed

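Libraries were made with the SMARTer Ultra Low RNA kit and sequenced on an Illumina HiSeq. The deposited files hold whole-number counts per gene symbol, 1 table a kidney, which the authors made from mm10 alignments (submitters' notes: cutadapt, TopHat2 2.0.9, Bowtie2, SAMtools 0.1.19, HTSeq). Strand setting, treatment of shared reads and annotation release are not given in the sources used here. The study describes the kidneys of a group as biological replicates.

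Each model was tested with edgeR 4.0.16 (filterByExpr, minimum count 10, TMM, quasi-likelihood F test, Benjamini-Hochberg, threshold 0.05) in R 4.3.3, after tests on simulated data. Confidence intervals are at 95%. Titles give litter numbers, and the residuals of same-litter kidneys correlated at a mean of −0.0854 and −0.0223. Lengths, 3′ UTRs and positions came from GENCODE M21, which matched 22708 of 24062 symbols (94.4%). Alternatives were RLE and upper-quartile scaling, no filter, DESeq2 1.42.0, litter, length-slope and Y-linked covariates, 1 fit of all kidneys, the unadjusted threshold, and leaving out each kidney. The named genes were the 10 members, the targeted genes, the 5 genes nearest to Hmga2, and from the other let-7 targets those called (at most the 8 smallest p-values a comparison) plus Igf2, Igdcc3, Fignl2, Arid3b, Myc, Lin28a and Lin28b. The genes and lists were chosen with earlier results of these data known.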

Additional observations from a re-analysis of the deposited data

Results flagged for a closer look

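For 4 of the other let-7 targets that were named singly, the LIN28B Wt1 kidneys all lay above the mean log2 level of their controls. The let-7 KO kidneys all lay below that of theirs. Levels in each kidney are not given here for the targets that were not named. These 4 genes were named whatever their p-value, with earlier results of these data known. The share of all genes with such an opposition is not given here. Igdcc3 differed by 1.57 on the log2 scale in LIN28B Wt1 and by −1.26 in let-7 KO. Arid3b differed by 2.38 and −0.58, Myc by 0.67 and −0.73, and Fignl2 by 1.12 and −0.63. Of these 8 values, those of Igdcc3 and Arid3b in LIN28B Wt1 passed the adjusted threshold. The test of the difference between the models gave an edgeR adjusted p of 0.418 for Igdcc3, 0.363 for Arid3b, 0.314 for Myc and 0.713 for Fignl2. Myc was at 62.6, 84.0 and 67.5 normalized CPM in let-7 WT kidneys and at 54.0, 36.1 and 40.3 in let-7 KO kidneys. Among the 10 oncofetal genes, Hmga1 (log2 differences of 0.53 and −0.54) showed the same opposition against the mean normalized CPM but not against the mean log2 level.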

How the results depend on the processing

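In LIN28B Wt1 kidneys 4 of the 10 genes were called, 4 also with litter as a replicate block, and 4 to 6 under the other settings. Leaving out single kidneys gave 2 to 5, with 2 left without control replicate 1 or 2. In let-7 KO kidneys 0 were called except at the unadjusted p below 0.01, which gave 2. For the difference between the models, no filter and DESeq2 each gave 1 call, the unadjusted threshold 2, and leaving out single kidneys 0 to 1. Between wild-type groups DESeq2 and the unadjusted threshold each gave 1, Cdc34. Of the 32 other let-7 targets 6 were raised, against 2 with the replicate block, 11 of 33 with DESeq2 and 13 with the length-slope covariate. For the LIN28B Wt1 counts the share of all genes called under each alternative setting is not given here. These counts therefore cannot tell a change in the targets from a change in how many genes pass at all. The cause of these changes was not tested.

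Reversals concerned only values that had not been called. In let-7 KO, Igf2bp1 became −0.328 with the length-slope covariate and −0.305 to 0.747 without single kidneys, and Nr6a1 became 0.519 with that covariate, 0.0746 with the Y-linked one and −0.805 to 0.739 without single kidneys. The difference between the models ran from −2.75 to 0.181 for Trim71 and from −1.20 to 0.352 for Nr6a1 without single kidneys. Between wild-type groups Arid3a became −0.0037 with upper-quartile scaling and −0.0836 to 0.0864 without single kidneys, and Igf2bp2 −0.236 to 0.161. Hmga2 kept its call in LIN28B Wt1 under each setting, at a log2 fold change of 3.62 to 3.84. The replicate block ended the calls of Arid3b, Ccnd2, Dicer1 and Nras (adjusted p = 0.0514 to 0.0807) and changed no call among the 10 genes. The SE was widest for Hmga1, Trim71 and Nr6a1 in both models.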
